A study of Mus musculus with 6 samples.

Results

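A set of 8 genes of the early neutrophil granules and their surroundings were followed in miR-223 null and wild-type mouse neutrophils, each through 1 probe set, the group of short probes that measures 1 transcript on an Affymetrix array. The members, chosen by probe set identifier, are Mpo (1415960_AT), Elane (1422928_AT), Prtn3 (1419669_AT), Ctsg (1419594_AT), Srgn (1417426_AT), Serpinb1a (1416318_AT), Ms4a3 (1420572_AT) and Plac8 (1451335_AT), and they are 8 of the 45101 probe sets in the table. The null neutrophils came from bone marrow of mice that lack miR-223, and the others from wild-type mouse bone marrow, with 3 arrays per genotype. In both genotypes, marrow progenitors were grown for 6 days with the cytokines G-CSF and SCF in SILAC medium, which labels proteins by isotope, and for 42 more hours with SCF withdrawn. Live neutrophils were then picked by magnetic sorting. Mouse strain, age and sex are not given in the sources used here, nor is the way the miR-223 gene was deleted. Nothing in the labels says whether arrays of 1 genotype came from separate mice or cultures, so the p-values cover only the spread among these arrays, and this may be technical.

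Primary (azurophil) granules are the first granules a maturing neutrophil makes. Their enzymes are transcribed mainly at the promyelocyte stage, packed onto a proteoglycan matrix, and kept for killing microbes or for release. Serine proteases that leak into the cytosol are met there by dedicated inhibitors. Of the 8 genes, 5 encode such granule enzymes or the matrix (Mpo, Elane, Prtn3, Ctsg, Srgn), while Serpinb1a encodes a cytosolic inhibitor, Ms4a3 a membrane protein of granulocyte progenitors and Plac8 a small cysteine-rich protein. The name primary granule genes therefore covers only the first 5.

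The microRNA removed in the null cells has the mature arms shown here, with the seed (bases 2 to 8), which pairs with target mRNAs, in capitals. Both are RefSeq sequences on chromosome X of build GRCm38.p6, at chrX:96242884-96242905 for the 3p arm and chrX:96242842-96242864 for the 5p arm, on the plus strand.
mmu-miR-223-3p: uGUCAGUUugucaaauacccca
mmu-miR-223-5p: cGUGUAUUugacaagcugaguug
The level of miR-223 and seed matches in the members' mRNAs were not analysed here.

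The sequences before the 4 granule enzyme genes are shown because they hold the motif that most members share among the 6 searched: the letters GAGGAA, in capitals, a core recognised by the myeloid transcription factor PU.1. Each run is the 250 bases before the gene's start in RefSeq build GRCm38.p6, read 5′ to 3′ on the gene's strand: Mpo at chr11:87793534-87793783 (plus), Elane at chr10:79886062-79886311 (plus), Prtn3 at chr10:79879417-79879666 (plus) and Ctsg at chr14:56102575-56102824 (minus).
Mpo: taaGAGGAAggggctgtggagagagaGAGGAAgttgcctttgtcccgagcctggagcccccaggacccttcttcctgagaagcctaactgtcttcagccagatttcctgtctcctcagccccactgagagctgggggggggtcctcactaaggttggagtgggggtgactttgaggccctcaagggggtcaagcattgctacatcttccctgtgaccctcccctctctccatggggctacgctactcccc
Elane: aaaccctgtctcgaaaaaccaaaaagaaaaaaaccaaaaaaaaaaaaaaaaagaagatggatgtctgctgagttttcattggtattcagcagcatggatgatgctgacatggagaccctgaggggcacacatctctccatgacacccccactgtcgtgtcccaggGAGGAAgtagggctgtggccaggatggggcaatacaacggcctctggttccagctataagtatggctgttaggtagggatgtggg
Prtn3: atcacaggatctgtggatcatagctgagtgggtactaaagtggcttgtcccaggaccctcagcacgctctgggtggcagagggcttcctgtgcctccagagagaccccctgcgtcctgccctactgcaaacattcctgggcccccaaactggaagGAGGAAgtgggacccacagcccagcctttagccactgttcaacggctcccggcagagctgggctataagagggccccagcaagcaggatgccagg
Ctsg: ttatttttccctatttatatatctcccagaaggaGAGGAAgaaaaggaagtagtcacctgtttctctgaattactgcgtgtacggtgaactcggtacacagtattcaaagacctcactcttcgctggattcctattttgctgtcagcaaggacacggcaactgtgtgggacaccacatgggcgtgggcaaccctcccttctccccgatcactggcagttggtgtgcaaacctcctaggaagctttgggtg
Elane and Prtn3 are neighbours in the order of protein-coding genes on chromosome 10, and their matches began 85 bases before the start of Elane and 95 before that of Prtn3. Mpo had 2 matches, beginning 247 and 224 bases before its start, and Ctsg had 1, beginning 216 bases before.

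Windows of 300 bases, which add 50 bases after the start, were found for 7 of the 8 genes. GAGGAA lay on either strand in 6 of the 7 (Mpo, Elane, Prtn3, Ctsg, Ms4a3 and Plac8), against 28.3% of all 32851 windows. Plac8 and Srgn have 2 windows each, so they had more bases in which to match. In Ms4a3 the match lay after the start, at base 36. AACNGNC, a core of MYB, was in 4 of 7 genes (Mpo, Elane, Ctsg and Plac8), against 32.8% of windows. TGTGGT, a core of RUNX factors, was in 3 of 7 (Ctsg, Srgn and Plac8), against 16.8%. TTGCNNAA, a core of C/EBP factors, was in 2 of 7 (Ms4a3 and Plac8), against 10.8%, and the TATA letters TATAAA in 2 of 7 (Ctsg and Srgn), against 13.6%. The TATAAA matches lay 237 bases before the start of Ctsg, on the other strand, and 98 bases before that of Srgn. Only this exact run was searched, so its absence elsewhere does not show that a TATA box is lacking. AATCNNNG, for the repressor GFI1, was in 1 of 7 (Plac8), against 32.1%. All motifs were searched on both strands, and no 2 of these matches overlapped. A match is a run of letters, not a measured binding site.

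All 8 genes were among the brightest features of every array. Their log2 intensities lay between 13.23 and 14.26, where the array medians were 4.71 to 4.73 and probe sets for bacterial tryptophan sequences, which have no mouse transcript, averaged 2.77 to 2.86. Among 45037 probe sets without controls, the members ranked between 22 and 232, which is within the top 0.515% of each array. They lay 0.72 to 1.75 log2 units below the brightest probe set of their array, and so close to the upper end of the scale differences can be compressed; how much was not tested. Probe sets bind their transcripts with different strength, so these ranks do not order the amounts of the 8 mRNAs.

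**Figure D1:**
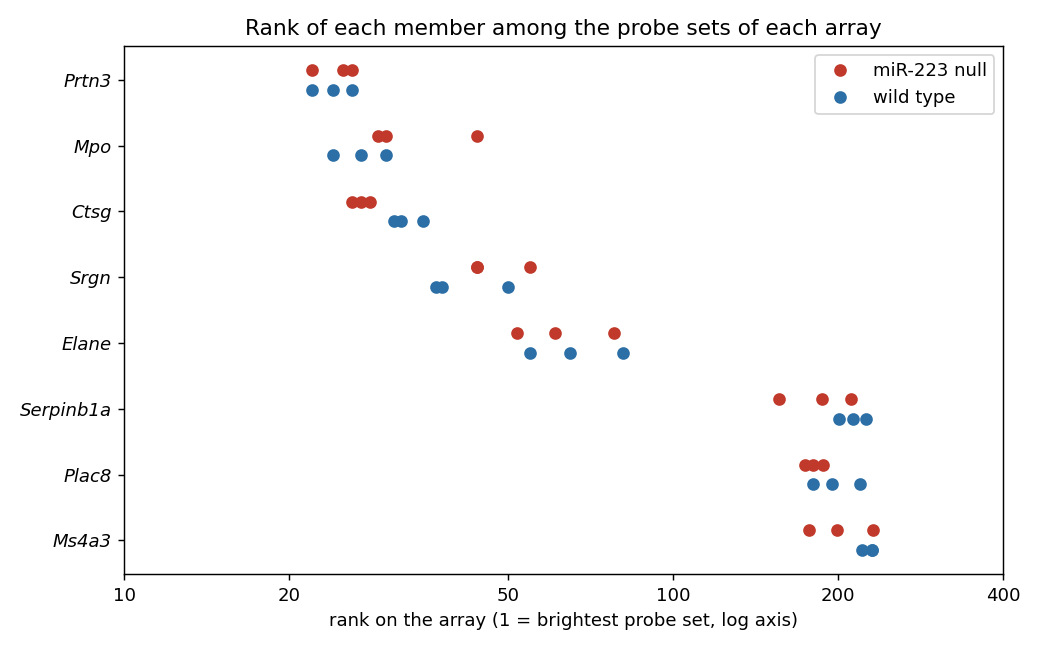
Rank of each member (rows) among the 45037 probe sets of each array, on a log axis where 1 is the brightest, with miR-223 null arrays in red above wild-type arrays in blue. All points lie between rank 22 and rank 232, with Prtn3, Mpo and Ctsg at 22 to 44 and Serpinb1a, Plac8 and Ms4a3 at 156 to 232.

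In miR-223 null neutrophils the measured levels of these genes lay close to those of wild type. Fitted null over wild-type ratios ran from 0.958-fold for Srgn to 1.09-fold for Serpinb1a, and the 95% confidence intervals of all 8 together spanned 0.886-fold to 1.22-fold. None of the 8 had a limma p under 0.05 after Benjamini-Hochberg adjustment over 27022 probe sets, while 0.189% of those probe sets did. At an unadjusted limma p under 0.05, 0 of the 8 passed, against 10.7% of all. With replicate number as a block, 1 of 8 passed, Serpinb1a, against 10% of all (4.96% in its direction, higher in null arrays), and 2 of 8 had an unadjusted limma p under 0.05, against 26.2% of all. The median size of the difference was 0.060 log2 units over the members, against 0.112 over all 27022 and 0.036 over the 213 probe sets at least as bright as the dimmest member. Intensity is relative to the other transcripts of the same array, and fewer cells of a type cannot be told apart from less RNA per cell.

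**Figure D2:**
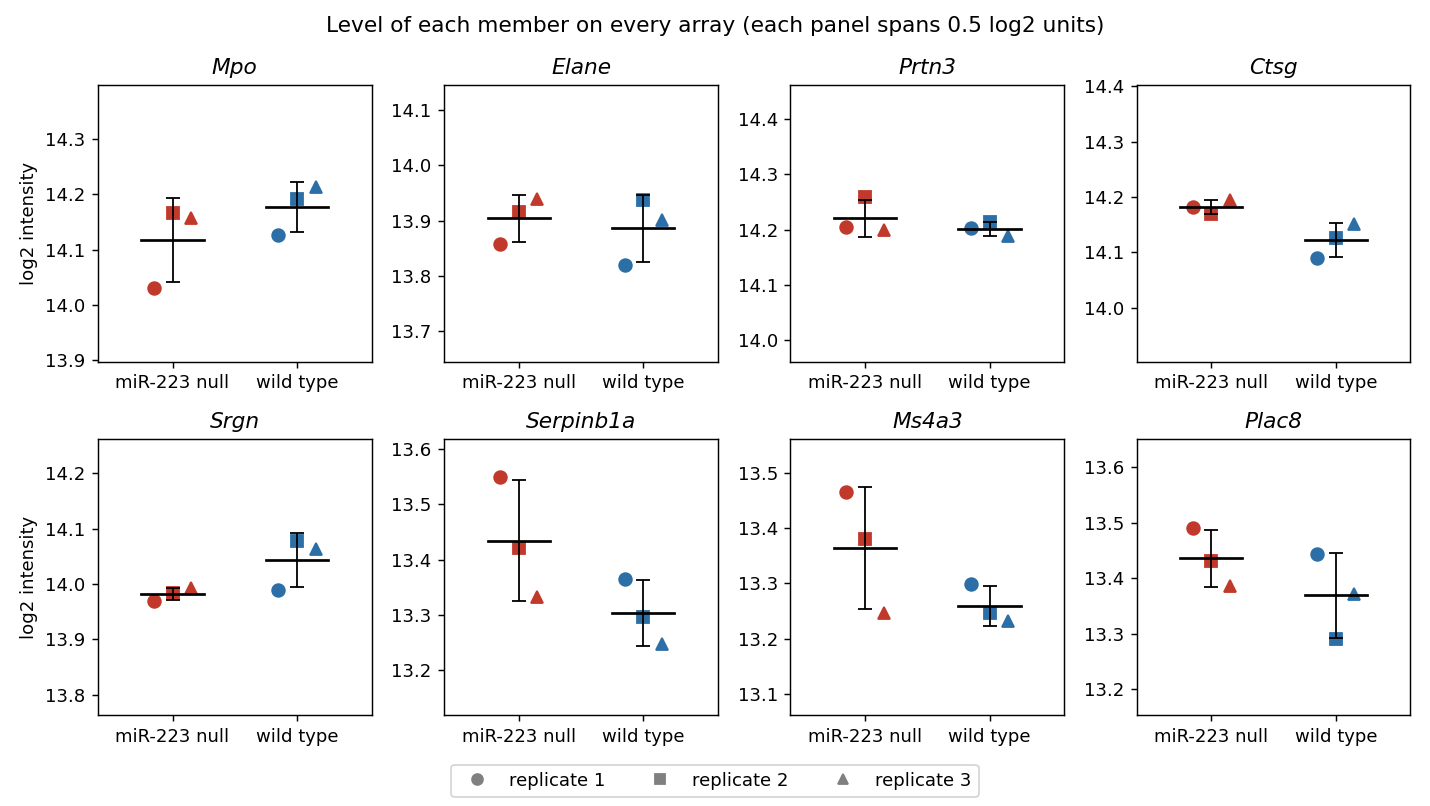
Log2 intensity of each gene on every array, miR-223 null left of wild type, with the mean (bar) and SD (whiskers, n = 3 arrays) and a symbol per replicate number; each panel spans 0.5 log2 units. Only for Ctsg do the 3 null points all lie above the 3 wild-type points.

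Mpo encodes myeloperoxidase, which makes hypochlorous acid from hydrogen peroxide and chloride. Its log2 intensity was 14.03, 14.17 and 14.16 on null arrays 1 to 3, against 14.13, 14.19 and 14.21 on wild-type arrays 1 to 3. Null 1 was the lowest of the 6, and the other null arrays lay inside the wild-type range. The means were 14.12 ± 0.08 in null and 14.18 ± 0.05 in wild-type arrays (SD, n = 3 each). The difference of -0.06 log2 units (SE 0.05, limma adjusted p = 0.748) was below 0 in 3 of 3 pairs, with values of -0.10, -0.03 and -0.06. Without null 1 it was -0.02.

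The 3 serine proteases cleave matrix and microbial proteins, and Ctsg (cathepsin G) has chymotrypsin-like specificity, while Elane (neutrophil elastase) and Prtn3 (proteinase 3) cut after small aliphatic residues. Elane read 13.86, 13.92 and 13.94 on null arrays, against 13.82, 13.94 and 13.90 on wild-type arrays. The genotypes overlapped, and replicate 1 was the lowest array in each. Its difference was 0.02 log2 units (SE 0.05, limma adjusted p = 0.937; 95% interval -0.09 to 0.13), and it turned to -0.01 without wild-type 1.

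Prtn3 was the steadiest of the 8 across arrays, at 14.20, 14.26 and 14.20 on null arrays, against 14.20, 14.21 and 14.19 on wild-type arrays. All 6 values fell within 0.07 log2 units. The difference was 0.02 log2 units (SE 0.03, limma adjusted p = 0.910; 95% interval -0.06 to 0.10), and its sign turned after quantile normalization (-0.0035) and without null 2 (-0.00014).

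Ctsg read 14.18, 14.17 and 14.20 on null arrays, against 14.09, 14.13 and 14.15 on wild-type arrays. It was the 1 member of 8 whose genotypes did not overlap, with all null arrays above all wild-type arrays, where 16.8% of the 27022 probe sets had no overlap. The means of 14.18 ± 0.01 in null and 14.12 ± 0.03 in wild-type arrays (SD, n = 3 each) differed by 0.06 log2 units, or 1.04-fold (95% interval 0.985 to 1.10). This did not pass (SE 0.03, limma adjusted p = 0.619, and 0.217 with the block).

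Srgn encodes serglycin, the proteoglycan core protein whose negatively charged chains hold basic proteases in the granule. Its intensity was 13.970, 13.984 and 13.992 on null arrays, against 13.988, 14.078 and 14.063 on wild-type arrays. The ranges met only at wild-type 1, which lay below null 3 by a few thousandths of a log2 unit. Null arrays averaged 13.98 ± 0.01 and wild-type arrays 14.04 ± 0.05 (SD, n = 3 each), a difference of -0.06 log2 units (SE 0.04, limma adjusted p = 0.651; 0.227 with the block). Pair differences were -0.02, -0.09 and -0.07. Mpo and Srgn were thus the 2 members below 0 in 3 of 3 pairs, which was so for 25% of all probe sets.

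Serpinb1a encodes the mouse counterpart of human SERPINB1, a cytosolic inhibitor of elastase, proteinase 3 and cathepsin G. It read 13.55, 13.42 and 13.33 on null arrays, against 13.37, 13.30 and 13.25 on wild-type arrays. Null 1 and null 2 lay above every wild-type array, and null 3 lay inside the wild-type range. The means were 13.43 ± 0.11 in null and 13.30 ± 0.06 in wild-type arrays (SD, n = 3 each). Without a block the difference of 0.13 log2 units did not pass (SE 0.07, limma adjusted p = 0.542). Within pairs the null array was higher by 0.18, 0.12 and 0.08, and with the block Serpinb1a rose 1.09-fold (95% interval 1.04 to 1.15, SE 0.03, limma adjusted p = 0.0452). This call was lost in the blocked fit without the intensity trend (limma adjusted p = 0.296), without replicate 1 (0.166) and without replicate 2 (0.208), and it stayed without replicate 3 (0.0371). The call also rests on pairing arrays by replicate number, which is unsettled for replicates 2 and 3, and other pairings were not fitted. Set the other way, null 2 read 13.4215 against 13.2477 on wild-type 3, and null 3 read 13.3317 against 13.2968 on wild-type 2. Null 1 held the highest value, and without it the unblocked difference was 0.07 log2 units.

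Ms4a3 encodes a membrane protein of the MS4A family found in granulocyte and monocyte progenitors. Its intensity was 13.46, 13.38 and 13.25 on null arrays, against 13.30, 13.25 and 13.23 on wild-type arrays. Null 1 and null 2 were the 2 highest arrays, and null 3 lay at the level of wild-type 2. The difference was 0.10 log2 units, a ratio of 1.08 with a 95% interval of 0.972 to 1.19 (SE 0.06, limma adjusted p = 0.623). It was 0.05 log2 units without null 1 and 0.16 without null 3. With the block it did not pass (limma adjusted p = 0.123), except when replicate 3 was left out (0.0381), whose pair differed by 0.02. The pair of replicate 1 differed by 0.17 and that of replicate 2 by 0.13.

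Plac8 is expressed in myeloid cells and its product is a small protein with many cysteines. It read 13.49, 13.43 and 13.39 on null arrays, against 13.44, 13.29 and 13.37 on wild-type arrays. The null arrays lay high but overlapped with wild-type 1. The difference of 0.07 log2 units (SE 0.06, limma adjusted p = 0.745) came to 0.05, 0.14 and 0.01 within pairs. It was 0.04 without null 1, 0.03 without wild-type 2 and 0.11 without wild-type 1.

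**Figure D3:**
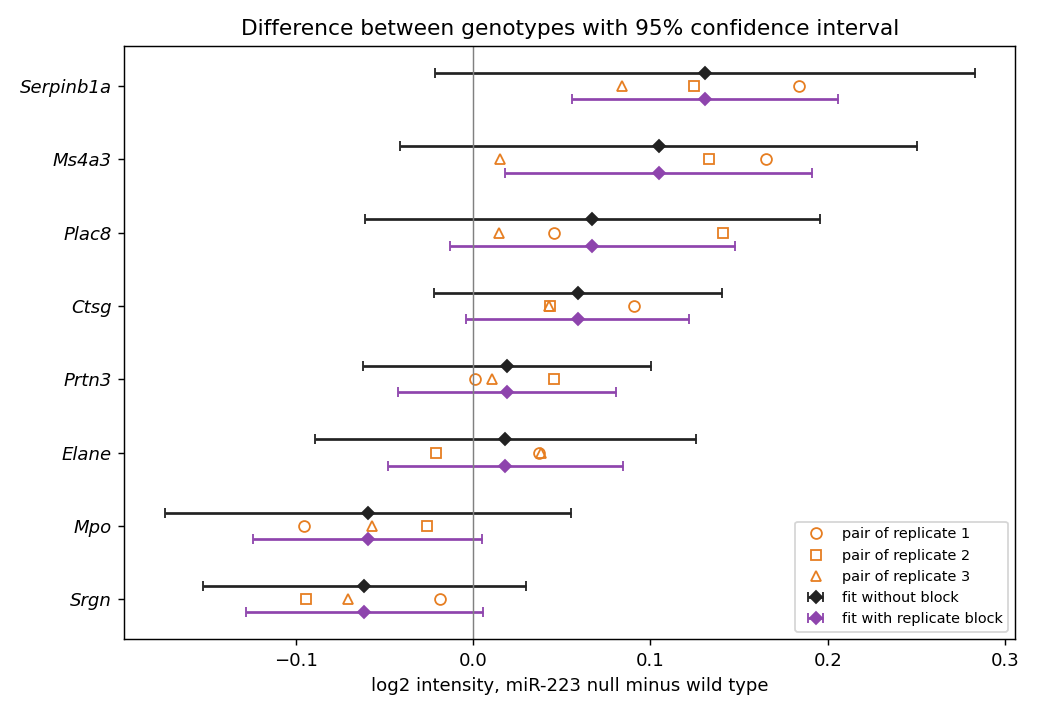
Difference in log2 intensity, miR-223 null minus wild type, for each gene (rows), as fitted without a block (black) and with the replicate number as a block (purple), with 95% confidence intervals and the 3 pair differences (open symbols). The blocked intervals of Serpinb1a and Ms4a3 lie above 0, and only that of Serpinb1a goes with an adjusted p under 0.05 (0.0452).

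In 3 of 3 pairs, 5 genes were higher in null arrays (Prtn3, Ctsg, Serpinb1a, Ms4a3 and Plac8), against 21.6% of all probe sets, and Prtn3 turned sign after quantile normalization. Together, 7 of 8 members kept 1 direction in 3 of 3 pairs, against 46.6% of all 27022. The granule enzymes and the matrix gene thus included both signs: Mpo and Srgn were below 0, Ctsg and Prtn3 above it, and Elane was mixed. The pairing rests on replicate numbers that share no stated batch, and for replicates 2 and 3 it is unsettled, so these counts depend on it. Set against wild-type 2, null 3 was lower for Prtn3 (14.1986 against 14.2136) and Ms4a3 (13.2468 against 13.2473). For Elane it was higher (13.9391 against 13.9371), and null 2 was higher than wild-type 3 (13.9161 against 13.9007). With replicates 2 and 3 swapped, Elane would thus be higher in null arrays in every pair, while Prtn3 and Ms4a3 would be mixed. The Prtn3 pair of replicate 1 differed by only 0.001 log2 units.

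For several of these genes, differences between replicate numbers were of similar size to those between genotypes. On the first principal component over all kept probe sets, which held 48.7% of the variance, both arrays numbered 1 were set apart from the other 4. The second component held 27.5% and set the genotypes apart, with null arrays at -22.6 to -12.4 and wild-type arrays at 14.3 to 19.2. Serpinb1a, Ms4a3 and Plac8 were highest on replicate 1 in both genotypes, by 0.17, 0.15 and 0.08 log2 units over the mean of replicates 2 and 3 in null arrays and by 0.09, 0.06 and 0.11 in wild-type arrays. Mpo, Elane and Srgn were lowest there, by -0.13, -0.07 and -0.02 in null arrays and by -0.08, -0.10 and -0.08 in wild-type arrays. Over all kept probe sets, 28.4% were highest and 27.6% lowest on replicate 1 in both genotypes. Prtn3 and Ctsg followed neither pattern. With both replicate 1 arrays left out, the differences were 0.10 for Serpinb1a, 0.07 for Ms4a3, 0.08 for Plac8, -0.04 for Mpo, -0.08 for Srgn, 0.0087 for Elane, 0.03 for Prtn3 and 0.04 for Ctsg. None of these 8 passed in that limma fit without a block, where 3.97% of all probe sets did. Before adjustment 1 of the 8, Srgn, had a limma p just under 0.05 (0.0499953), against 20.3% of all probe sets under 0.05. What sets replicate 1 apart was not tested.

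**Figure D4:**
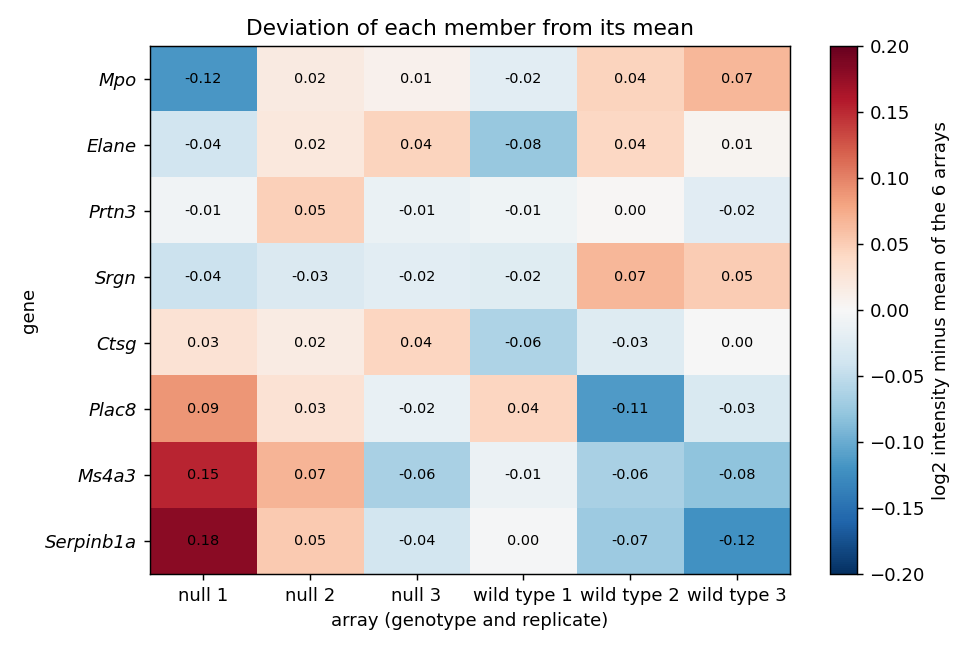
Deviation of each gene (rows) from its own mean over the 6 arrays (columns, null 1 to 3 and then wild type 1 to 3), in log2 units and on a colour scale from -0.2 to 0.2. Serpinb1a reaches 0.18 on null 1, where Mpo is at its lowest with -0.12.

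The members varied little between arrays of 1 genotype. The pooled SD within genotypes had a median of 0.057 log2 units over the members, against 0.154 over all kept probe sets and 0.054 over the 213 at least as bright. It ran from 0.024 for Ctsg and 0.025 for Prtn3 to 0.088 for Serpinb1a. Among those 213 bright probe sets, 6.57% passed with the block, 7 higher and 7 lower in null arrays, and their largest difference in size was 0.41 log2 units.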

How the data were processed

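The authors deposited 1 table of log2 intensity, with 45101 probe sets and 6 arrays. Per the submitters' processing notes GCOS was used; background correction, normalization and probe summary are not given in the sources used here, and the log base was read from the values. They were used as deposited, so a change in total mRNA cannot be seen. Groups and replicate numbers came from sample titles. The 8 members and all lists were chosen with earlier results of these data known, and all 8 are named. Gene names of probe sets came with the member list, as the table gives identifiers only; the other gene lists, cell type markers and the most similar genes were therefore not run, and proteins were not analysed.

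After removing 64 control probe sets, a filter at the 40th percentile of the mean over all arrays (4.08) left 27022, all 8 members among them. The genotypes were compared, as null minus wild type, by limma 3.58.1 under R 4.3.3 (lmFit, eBayes with intensity trend, two-sided, Benjamini-Hochberg adjusted p under 0.05), with replicate number as a block as the alternative. The code of the fit without a block was tested on simulated data that had no replicate structure and larger changes than those of the members. The blocked fit was not tested in this way. Deviations from group means correlated at 0.70, 0.30 and 0.48 for replicates 1, 2 and 3, all over 0.1. Arrays of 1 number were treated as pairs. The mismatched arrays, null 2 with wild-type 3 (0.21) and null 3 with wild-type 2 (0.41), were also over 0.1. That cut therefore cannot tell the pairing used for replicates 2 and 3 from the swapped one, and their pairing is unsettled. Other filters, normalizations, variance models and left-out arrays were tried. The 3 arrays per genotype limit the precision. RefSeq tables of build GRCm38.p6 gave 8 of 8 gene entries and promoters for 7 of 8.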

Additional observations from a re-analysis of the deposited data

How the results depend on the processing

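Of 18 alternative settings, 6 leave the differences identical by construction (they alter only the block, the filter, the variance model or the threshold). In the other 12, Mpo and Srgn stayed below 0, and Ctsg, Serpinb1a, Ms4a3 and Plac8 above it, while Elane turned to -0.015 log2 units without wild-type 1 (-0.015 to 0.044 with 1 array left out) and Prtn3 to -0.0035 after quantile normalization and -0.00014 without null 2 (-0.00014 to 0.030 with 1 array left out). The number of members passing was 0 without the block, also when any 1 array was left out (0 to 0), after either renormalization, at either filter and at an adjusted p under 0.01. It was 1 with the replicate block, where 10% of all probe sets passed. With the replicate block and without replicate 3 it was 2, where 8.58% of all passed. It was 0 with the block in its other 3 forms (no intensity trend, without replicate 1, without replicate 2). The cause was not tested. Among all probe sets, 51 passed, and 0 to 58 did when 1 array was left out. The count was 2 at an adjusted p under 0.01, 2703 with the replicate block, 191 with the block and no intensity trend, and 2045, 606 and 2319 with the block and without replicate 1, 2 or 3. Leaving out both replicate 1 arrays, chosen after seeing the data, gave 1072. The members lie near the upper end of the scale, and whether this compresses their differences was not tested.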
